A study of Mus musculus with 24 samples.

Results

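The levels of 9 genes of the mouse visual cortex, Mdfic2, Trbc2, Nxf7, A830009L08Rik, Gm13601, Rspo1, Scnn1a, Emx1 and Wnt9a, were followed across 24 RNA-seq libraries. The 9 genes were chosen by their rises over dark in the same libraries, in both light and psilocybin, so their levels against the dark group are given as a description and without a test. They are 9 of 14464 genes tested, out of 55414 in the count table, and all 9 passed the filter of at least 30 counts in some library. Nxf7 and Gm13601, with at most 5 and 7 counts in a dark library, passed it only through the other groups, so for these genes passing the filter and being higher than dark are not separate facts.

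All mice were male C57BL/6J of 8 to 10 weeks by the study's methods, and were kept on a reversed light cycle and used in its dark phase. Each received an intraperitoneal injection of PBS or of psilocybin at 5 mg/kg, a dose of a compound whose active form stimulates serotonin receptors, and was then kept in the dark or placed in light for 2.5 h. The groups were dark (PBS), light (PBS), psilocybin-dark and psilocybin-light, with 6 libraries each, and total counts ran from 13552516 to 17906994 per library. Polyadenylated RNA was read from a dissected block of visual cortex, so a lower level in bulk tissue can come from fewer cells of a type or from less RNA per cell, which cannot be told apart.

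The assignment of light exposure differs between sources. The groups used here follow the headings of the count table that accompanies the study, while the sample labels give the opposite exposure, with the same drug, for all 24 libraries. By the labels, the libraries called dark here would be PBS light libraries, and every statement below on light and dark would change names. Arc, Npas4, Egr1 and Fosb, neuronal activity genes known to be induced by light in visual cortex, were lowest in the libraries called dark. Arc stood at 1089 ± 333 normalized counts in dark, 7729 ± 3174 in light, 5902 ± 2511 in psilocybin-dark and 10248 ± 2379 in psilocybin-light (SD, n = 6). In light, Arc was higher than dark by 2.83 (SE 0.31) on the log2 scale, Npas4 by 2.37 (SE 0.29), Egr1 by 1.88 (SE 0.23) and Fosb by 0.98 (SE 0.27). Libraries 1 and 6 (dark), 12 (psilocybin-dark) and 18 (light) also stand apart. Their summed normalized count over 8 cerebellum genes was 18811 to 67086, against 285 to 1767 in the other 20 libraries, and results are also given without them.

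The genes have different roles. Rspo1 encodes a secreted R-spondin, which binds LGR receptors and keeps the ligases RNF43 and ZNRF3 from removing Wnt receptors, and Wnt9a encodes a secreted Wnt ligand. In sensory cortex, Rspo1 and Scnn1a, the latter encoding the alpha subunit of the epithelial sodium channel, are used as markers of layer 4, the main target layer of thalamic input. Emx1 encodes a homeodomain transcription factor of the dorsal telencephalon, present in cortical glutamatergic neurons and their progenitors. Trbc2 is a constant region of the T cell receptor beta chain, Nxf7 a member of the nuclear RNA export factor family, and Mdfic2 a relative of the MyoD family inhibitors, while A830009L08Rik and Gm13601 are annotated as long noncoding RNAs.

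On GRCm39, 4 of the 9 genes lie on chromosome 6. These are Trbc2 (chr6:41523664-41525286), Emx1 (chr6:85164420-85181444), Mdfic2 (chr6:98212667-98319715) and Scnn1a (chr6:125297622-125321906). The others are Gm13601 (chr2:67321388-67346869), Rspo1 (chr4:124879876-124902892), Wnt9a (chr11:59197567-59224378), A830009L08Rik (chr13:91516386-91536426) and Nxf7 (chrX:134480304-134499535). Mdfic2, Nxf7, A830009L08Rik and Gm13601 are on the minus strand. Gm13601 lies across from Xirp2 on the opposite strand, whose highest count was 20, and reads of overlapping genes could not be separated by strand here.

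RefSeq promoter windows, 250 bases before to 50 after a start, were held for 6 of the 9 genes, and each window matched GRCm39 at 1 place. They are shown because the 6 genes were all higher than dark and yet differed in base composition at their starts. The 300-base windows of Wnt9a, Emx1 and Rspo1 held 58, 37 and 29 CG dinucleotides, with a GC content of 83.3%, 74.0% and 69.0%. The windows of A830009L08Rik, Gm13601 and Nxf7 held 7, 6 and 2, with 41.7%, 44.3% and 49.3% (the first of 2 overlapping Nxf7 windows). Across 32851 windows the median was 7.0 CG dinucleotides and 52.7% GC. In the sequences below, on GRCm39 at chr4:124879973-124880272 (plus strand), chr11:59197506-59197805 (plus strand), chr13:91536155-91536454 (minus strand) and chrX:134499481-134499780 (minus strand), capitals mark CG.
Rspo1: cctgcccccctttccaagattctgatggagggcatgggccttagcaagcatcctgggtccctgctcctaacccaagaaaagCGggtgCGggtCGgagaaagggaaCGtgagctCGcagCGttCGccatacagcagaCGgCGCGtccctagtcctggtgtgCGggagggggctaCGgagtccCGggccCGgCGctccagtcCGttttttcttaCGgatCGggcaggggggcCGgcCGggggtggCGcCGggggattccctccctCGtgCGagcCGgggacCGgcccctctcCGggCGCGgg
Wnt9a: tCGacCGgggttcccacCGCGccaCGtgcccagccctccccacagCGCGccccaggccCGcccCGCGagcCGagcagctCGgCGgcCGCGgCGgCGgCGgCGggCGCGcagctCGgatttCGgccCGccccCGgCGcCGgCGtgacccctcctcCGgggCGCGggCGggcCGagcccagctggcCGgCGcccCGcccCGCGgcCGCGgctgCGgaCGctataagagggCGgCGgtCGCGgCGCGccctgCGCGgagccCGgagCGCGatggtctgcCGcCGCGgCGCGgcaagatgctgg
A830009L08Rik: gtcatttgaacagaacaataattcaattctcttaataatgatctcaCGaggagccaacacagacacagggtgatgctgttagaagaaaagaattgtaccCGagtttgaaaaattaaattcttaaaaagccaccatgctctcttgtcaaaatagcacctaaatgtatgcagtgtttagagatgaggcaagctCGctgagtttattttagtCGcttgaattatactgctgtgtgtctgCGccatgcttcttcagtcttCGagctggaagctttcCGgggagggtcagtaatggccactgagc
Nxf7: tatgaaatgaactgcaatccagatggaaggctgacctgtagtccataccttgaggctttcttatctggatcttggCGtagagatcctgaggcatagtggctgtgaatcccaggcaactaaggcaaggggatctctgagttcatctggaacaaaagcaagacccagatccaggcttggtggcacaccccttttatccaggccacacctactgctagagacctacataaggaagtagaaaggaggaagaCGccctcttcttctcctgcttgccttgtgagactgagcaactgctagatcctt
Both strands of the windows were searched for 6 short motifs. TGACGTCA, which is the cAMP response element and stands in 1.79% of all windows, TGANTCA (AP-1, 7.81%), ATCAAAG (TCF/LEF, 3.73%) and TAATTA (homeodomain, 5.29%) had no match in the windows of the 6 genes. AGGTCA, the half-site of ROR receptors, stood once in the Nxf7 window and in 16.3% of all windows. CANNTG, the E-box, stood in the windows of Nxf7, Gm13601, Wnt9a, Emx1 and A830009L08Rik but not in that of Rspo1, against 72.3% of all windows. A match is only a description of letters.

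Against dark, the genes fell into a group of 6 with differences of about 8-fold and more and a group of 3 with differences of about 2-fold to 3-fold. The 6 were Mdfic2, Trbc2, Nxf7, A830009L08Rik, Gm13601 and Rspo1, with a log2 fold change of 2.96 to 4.22 in the 3 comparisons with dark. The 3 were Emx1, Wnt9a and Scnn1a, at 0.89 to 1.49. The 3 comparisons share the same 6 dark libraries, so their values are not independent of each other. The levels below are normalized counts, scaled to a library of 16058300 counts, and n = 6 libraries per group. For light, 15.4% of all tested genes were called higher and 16.5% lower than dark (edgeR's quasi-likelihood test, adjusted p under 0.05). For psilocybin-dark the shares were 11.9% and 12.8%, and for psilocybin-light 17.4% and 21%.

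Mdfic2 was near the floor in dark, with 18, 3, 7, 3, 40 and 3 raw counts in libraries 1 to 6. Its normalized count was 11.5 ± 13.6 (SD, n = 6) in dark, 151 ± 26.3 in light, 156 ± 49.7 in psilocybin-dark and 193 ± 25.5 in psilocybin-light. The lowest of the 18 other libraries, at 104, stood above the highest dark library, at 37.2, so no group overlapped dark. The log2 fold change over dark was 3.69 (SE 0.39) in light, 3.74 (SE 0.39) in psilocybin-dark and 4.04 (SE 0.39) in psilocybin-light.

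Trbc2 had 4, 3, 3, 2, 38 and 1 raw counts in the dark libraries, so 5 of 6 were at 4 or fewer and library 5 held most of the reads. Its level was 7.95 ± 13.4 in dark, 108 ± 30.6 in light, 88.4 ± 26.5 in psilocybin-dark and 106 ± 17.7 in psilocybin-light (SD, n = 6). The lowest light and psilocybin-dark libraries, at 51.3 and 48.0, were libraries 18 and 12, and both stood above dark library 5 at 35.3. The log2 fold change over dark was 3.74 (SE 0.49), 3.44 (SE 0.49) and 3.71 (SE 0.49) in light, psilocybin-dark and psilocybin-light.

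Nxf7 had the fewest reads, with 8 raw counts over the 6 dark libraries and 0 in 3 of them. It reached 104 raw counts over the light libraries, 130 over psilocybin-dark and 151 over psilocybin-light. In normalized counts this was 1.26 ± 1.82 in dark against 17.1 ± 5.61, 22.6 ± 10.6 and 25.7 ± 4.75 (SD, n = 6). The log2 fold changes of 3.64 (SE 0.52), 4.04 (SE 0.51) and 4.22 (SE 0.51) rest on those 8 counts, and the margin between the highest dark library and the lowest light library was 4.65 against 7.03.

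The 2 long noncoding RNAs behaved alike in size. A830009L08Rik had 0, 9, 9, 1, 44 and 2 raw counts in dark and a level of 10.3 ± 15.5, against 128 ± 35.9 in light, 95.5 ± 29.5 in psilocybin-dark and 128 ± 22.7 in psilocybin-light (SD, n = 6). Gm13601 had 0, 1, 2, 0, 7 and 4 raw counts in dark and a level of 2.21 ± 2.53, against 24.9 ± 6.18, 23.7 ± 7.71 and 30.8 ± 9.57 (SD, n = 6). The A830009L08Rik margin was thin in psilocybin-dark, where library 12 stood at 46.0 and dark library 5 at 40.9. Log2 fold changes over dark were 3.63, 3.20 and 3.62 for A830009L08Rik (SE 0.51 each) and 3.43, 3.35 and 3.73 for Gm13601 (SE 0.46, 0.46 and 0.45), in light, psilocybin-dark and psilocybin-light.

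Dark library 5 carried much of the dark signal of these 5 genes. Without it, the light difference on the log2 scale became 5.39 for Trbc2, 4.95 for A830009L08Rik, 4.63 for Nxf7, 4.53 for Mdfic2 and 4.10 for Gm13601. The psilocybin-dark difference became 5.09, 4.53, 5.03, 4.58 and 4.03, and the psilocybin-light difference 5.35, 4.95, 5.21, 4.88 and 4.41, in the same order. Without dark libraries 1 and 6 the light differences were 3.29, 3.08, 3.08, 3.56 and 3.31.

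Rspo1 stood at 23.6 ± 21.5 in dark, 190.0 ± 67.0 in light, 187 ± 92.8 in psilocybin-dark and 203 ± 54.5 in psilocybin-light (SD, n = 6). Its dark libraries did not follow those of the other genes. The highest was library 1, at 59.9 normalized counts and 67 raw counts, which was lowest or tied for lowest for 6 of the other 8 genes. Psilocybin-dark split into libraries 8, 10 and 11 at 264 to 276 and libraries 7, 9 and 12 at 68.1 to 139, and light libraries 17 and 18 stood at 131 and 82.4 against 214 to 243 in the other 4. Even so, the lowest library of every other group lay above 59.9. The log2 fold change was 2.99 (SE 0.45) in light, 2.96 (SE 0.46) in psilocybin-dark and 3.08 (SE 0.45) in psilocybin-light.

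Scnn1a, the other layer 4 marker, differed less and overlapped dark. Its level was 58.5 ± 25.0 in dark, 119 ± 19.2 in light, 108 ± 21.6 in psilocybin-dark and 130 ± 20.2 in psilocybin-light (SD, n = 6). Dark library 5, at 102, lay above light libraries 17 and 18, at 98.1 and 98.5, and above 3 psilocybin-dark libraries, the lowest at 82.5. The log2 fold change over dark was 1.02 (SE 0.21), 0.89 (SE 0.21) and 1.14 (SE 0.21), and only psilocybin-light, whose lowest library was at 108, did not overlap dark.

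Emx1 was the most abundant of the 9, also per length, at 202 ± 90.2 in dark, 560.3 ± 100.2 in light, 462 ± 77.3 in psilocybin-dark and 564 ± 52.5 in psilocybin-light (SD, n = 6). Dark ran from 56.4 in library 1 to 315 in library 5, and the lowest libraries of the other groups, at 364, 337 and 486, stood above that range. Its log2 fold change over dark was 1.48 (SE 0.24) in light, 1.20 (SE 0.24) in psilocybin-dark and 1.49 (SE 0.24) in psilocybin-light. Wnt9a went from 130.3 ± 56.4 in dark to 269.5 ± 27.4, 274 ± 45.2 and 286 ± 32.8 (SD, n = 6), with log2 fold changes of 1.05 (SE 0.20), 1.07 (SE 0.21) and 1.14 (SE 0.20). Its highest dark library was library 3, at 197, and its lowest other library was library 12, at 214.

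Of the 9 genes, 8 did not overlap dark in light, 8 in psilocybin-dark and 9 in psilocybin-light. Over all tested genes, 5.59%, 3.13% and 8.28% were higher without overlap in these comparisons. The rule used the light and psilocybin-dark contrasts, and the psilocybin-light contrast shares their dark libraries, so nothing is read from the difference.

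**Figure D1:**
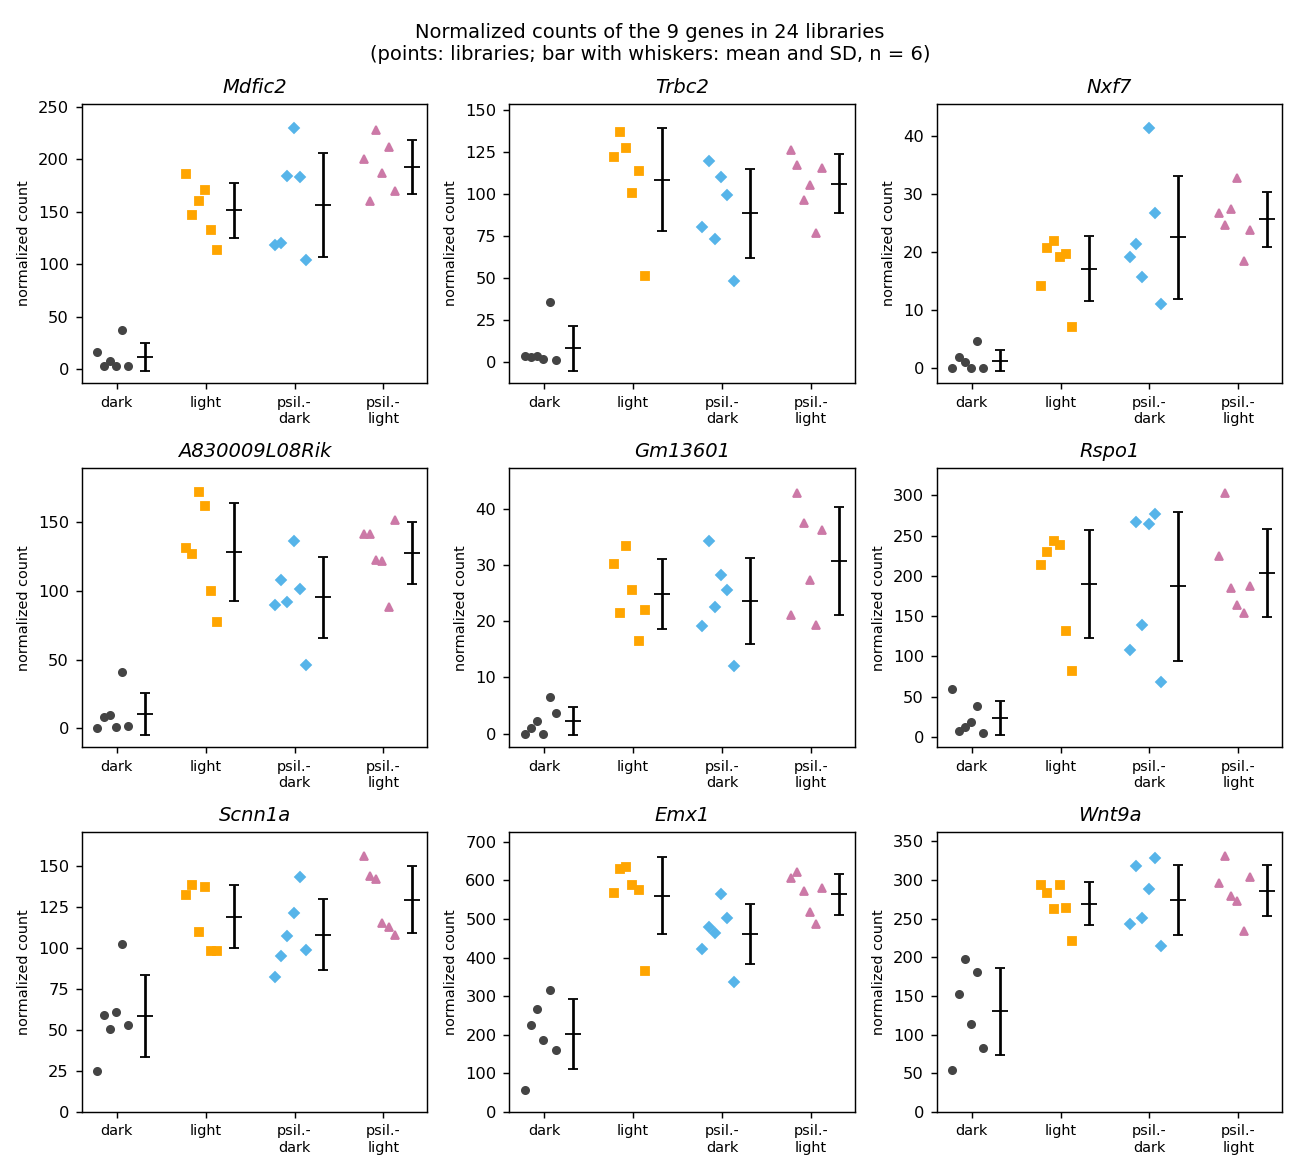
Normalized counts (vertical axes, linear) of the 9 genes by group; each point is 1 library and the bar with whiskers is the mean and SD of 6 libraries. Every gene except Scnn1a has its light and psilocybin-dark libraries above all dark libraries, and dark library 5 is the highest dark point for 7 of the 9 genes.

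The name of the group fits 6 genes better than the other 3. Among the 14342 tested genes whose mean was 10 counts or more, Trbc2, Mdfic2, Nxf7, A830009L08Rik and Gm13601 held ranks 2 to 6 by log2 fold change in light and ranks 1 to 5 in psilocybin-dark. Rspo1 was 11th in light and 7th in psilocybin-dark. Emx1 held ranks 115 and 161, Wnt9a 260 and 226, and Scnn1a 275 and 327. Ranked by the smaller of the 2 differences, Rspo1 stood at 2.96, with Ighg2c just above it at 3.14 and Ackr2 (2.85) and Myl4 (2.69) just below it, none of which is among the 9.

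Levels between genes can be compared only per length of exon. As normalized counts per kilobase, averaged over all 24 libraries, Emx1 stood at 205, Trbc2 at 112, Wnt9a at 61.3, Rspo1 at 60.9, Gm13601 at 50.5, Mdfic2 at 28.2, Scnn1a at 25.1, A830009L08Rik at 12.5 and Nxf7 at 6.12. Emx1 was at the 80.4th percentile of the tested genes on this scale and Nxf7 at the 7.6th. In dark the order changed: Trbc2 at 11.5 stood behind Wnt9a at 33.3 and Scnn1a at 14.2, and Rspo1 at 9.53 stood behind Scnn1a. In light Trbc2, at 157, was second to Emx1, at 257.

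Each of the 3 comparisons among the groups other than dark uses light or psilocybin-dark libraries, and the levels in those libraries chose the genes. Their differences are therefore given as descriptions with 95% intervals, and nothing is read from the tests. None of the 9 genes was called in any of the 3 comparisons (edgeR's quasi-likelihood test, Benjamini-Hochberg adjustment over 14464 genes), and none had an unadjusted p under 0.05. DESeq2 also called 0 of the 9 in each. Over all tested genes, 0.608% were called between psilocybin-light and light, 6.38% between psilocybin-light and psilocybin-dark and 0.456% between psilocybin-dark and light.

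Between psilocybin-light and light, the log2 differences ran from -0.03 for Trbc2 to 0.58 for Nxf7. For Nxf7 the interval was -0.18 to 1.34, so a difference of over 2-fold lies within it. Nxf7 reached 30 counts only in psilocybin libraries, with at most 23 in a light library, so it passed the filter through the groups where it was higher than light. For Mdfic2 the difference was 0.35, with an interval from -0.30 to 1.00. The interval was narrower for Wnt9a, at 0.09 (-0.33 to 0.50), Emx1, at 0.01 (-0.46 to 0.48), and Scnn1a, at 0.12 (-0.30 to 0.54).

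Between psilocybin-light and psilocybin-dark, all 9 log2 differences were above 0, from 0.07 for Wnt9a to 0.42 for A830009L08Rik, and all 9 groups of libraries overlapped. The largest, A830009L08Rik, had an interval from -0.45 to 1.29 and Emx1, at 0.29, one from -0.19 to 0.76. Rspo1, at 0.12 (interval -0.70 to 0.93), changed its sign to -0.05 without psilocybin-dark library 12. The 9 genes share libraries, so 9 differences in 1 direction are not 9 separate results.

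Between psilocybin-dark and light, 3 genes stood above 0 and 6 below, from -0.42 for A830009L08Rik (interval -1.29 to 0.44) to 0.40 for Nxf7 (interval -0.36 to 1.16). Rspo1 differed by -0.02 (interval -0.84 to 0.79). The intervals of the 6 genes furthest from dark reached as far as -1.29 and 1.16 on the log2 scale, so the values do not show that the 3 groups were alike.

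**Figure D2:**
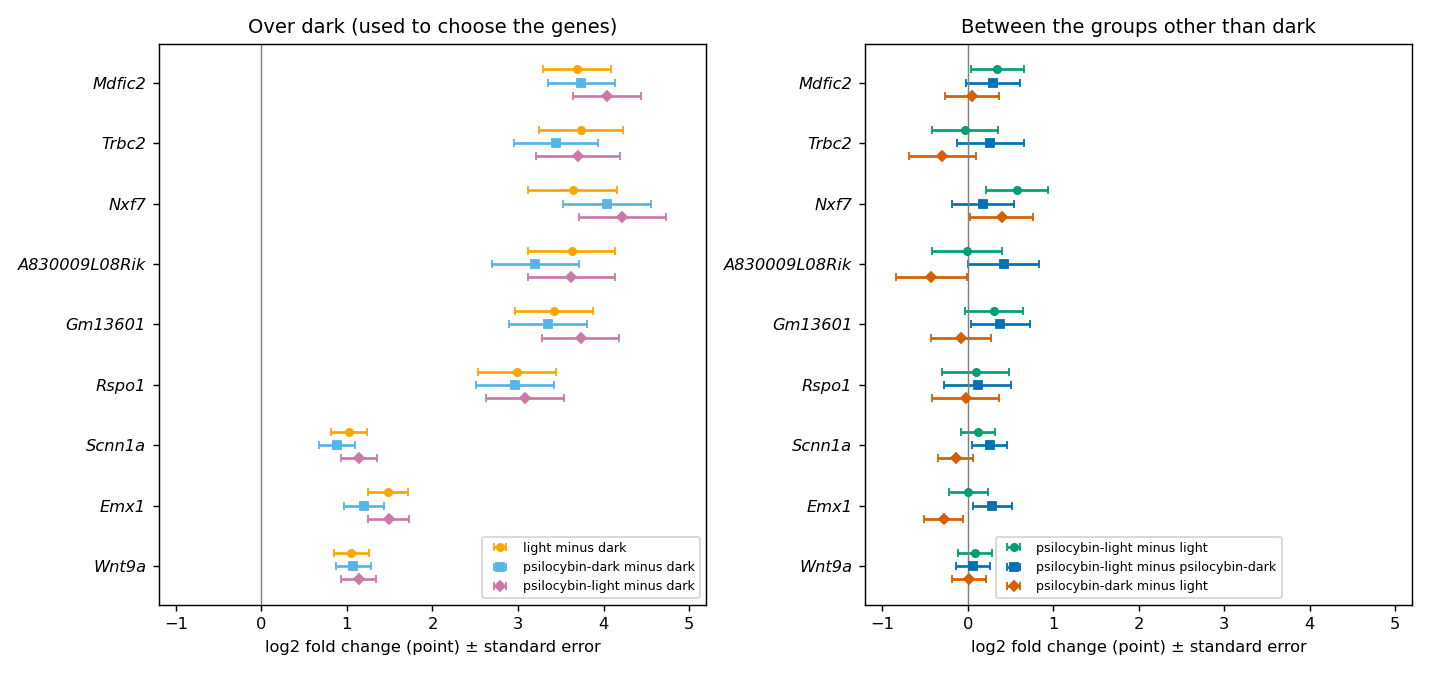
Log2 fold change of each gene (point) with its standard error (whiskers), for the 3 comparisons with dark (left) and the 3 comparisons without it (right), on the same horizontal scale. Light and psilocybin-dark against dark chose the genes, and psilocybin-light against dark shares their dark libraries. The left points lie between 0.89 and 4.22 and the right points between -0.42 and 0.58.

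Within groups, several genes shared their lowest or highest library. Psilocybin-dark library 12 was the lowest of its group for 8 of 9 genes, light library 18 for 7 and psilocybin-light library 23 for 7, while dark library 5 was the highest dark library for 7. Over the 18 libraries that are not dark, Pearson's r between pairs of the 9 genes ran from 0.37 (Gm13601 and Scnn1a) to 0.92 (Trbc2 and Emx1), with a median of 0.64 over 36 pairs. Without libraries 12 and 18 the median was 0.40 and the lowest pair, Mdfic2 and Trbc2, stood at -0.17. Over the 6 dark libraries the pairs ran from -0.43 (Rspo1 and Emx1) to 0.97 (Nxf7 and A830009L08Rik). The values over 18 libraries pool the groups other than dark, and all are descriptions, since the genes share libraries, depth and tissue block.

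Some sums of marker genes followed the level of the 9 genes across libraries, in either direction, and others did so less. The summed normalized count of Slc17a7, Camk2a, Nrgn and Slc17a6 was 37425 and 40548 in dark libraries 1 and 6, 77679 in library 12 and 91421 in library 18, against 83190 to 127905 in the other 20. Over the 18 libraries that are not dark, the mean standardized level of the 9 genes had r = 0.91 (rho = 0.77) with the log2 of that sum, and r = 0.78 (rho = 0.76) without libraries 12 and 18. With the cerebellum sum r was -0.86 (rho = -0.63), and -0.59 (rho = -0.51) without those libraries. With the astrocyte sum it was -0.84 (rho = -0.61), and -0.64 (rho = -0.46) without them. With the sum of 7 layer 2 and 3 genes it was -0.80 (rho = -0.34), and -0.26 (rho = 0.0029) without them, so that value rests on libraries 12 and 18. For oligodendrocyte, microglia and endothelium genes r over the 18 libraries was 0.10, 0.05 and -0.09. For GABAergic neurons it was -0.39, and 0.28 without libraries 12 and 18. The part of cell makeup in the levels of the 9 genes was not tested.

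The dark libraries also held more RNA of genes marking the hypothalamus and amygdala, and the hippocampus. The summed level of 9 hypothalamus and amygdala genes was 408 to 5171 in dark and 79.5 to 622 in the other 18 libraries, and all 8 tested genes of that list fell in all 3 comparisons with dark, with a median log2 fold change of -4.11 in light against -0.01 over all genes. Dlk1, an imprinted gene of neuroendocrine cells, stood at -5.60 (SE 0.75) in light and -5.82 (SE 0.76) in psilocybin-dark. For 9 hippocampus genes the sums were 2612 to 7015 in dark and 958 to 1677 elsewhere. The sums of the striatum, claustrum and thalamus lists overlapped between dark and the other 18 libraries, at 3247 to 4325 against 3195 to 4716, 849 to 1290 against 727 to 1342, and 883 to 3044 against 915 to 3071. Of the 7 hippocampus genes tested, 5 fell in light, 3 in psilocybin-dark and 6 in psilocybin-light, among them Fibcd1 at -3.51 (SE 0.41) in light, and 3 fell in light without dark libraries 1 and 6. Dark library 6 had the lowest hypothalamus sum of its group and the highest cerebellum sum of all 24. With the mean standardized level of the 9 genes, the log2 hypothalamus and amygdala sum had r = -0.42 (rho = -0.59) over the 18 libraries other than dark. Without libraries 12 and 18 this r was -0.77 (rho = -0.71), and over the 6 dark libraries -0.14 (rho = -0.31). For the hippocampus sum r was -0.39 (rho = -0.35), and -0.22 (rho = -0.21) without libraries 12 and 18. The part of these regions in the levels of the 9 genes was not tested. Without dark libraries 1 and 6 the light differences of Emx1, Wnt9a and Scnn1a were 1.18, 0.75 and 0.81, and that of Rspo1 was 3.30.

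**Figure D3:**
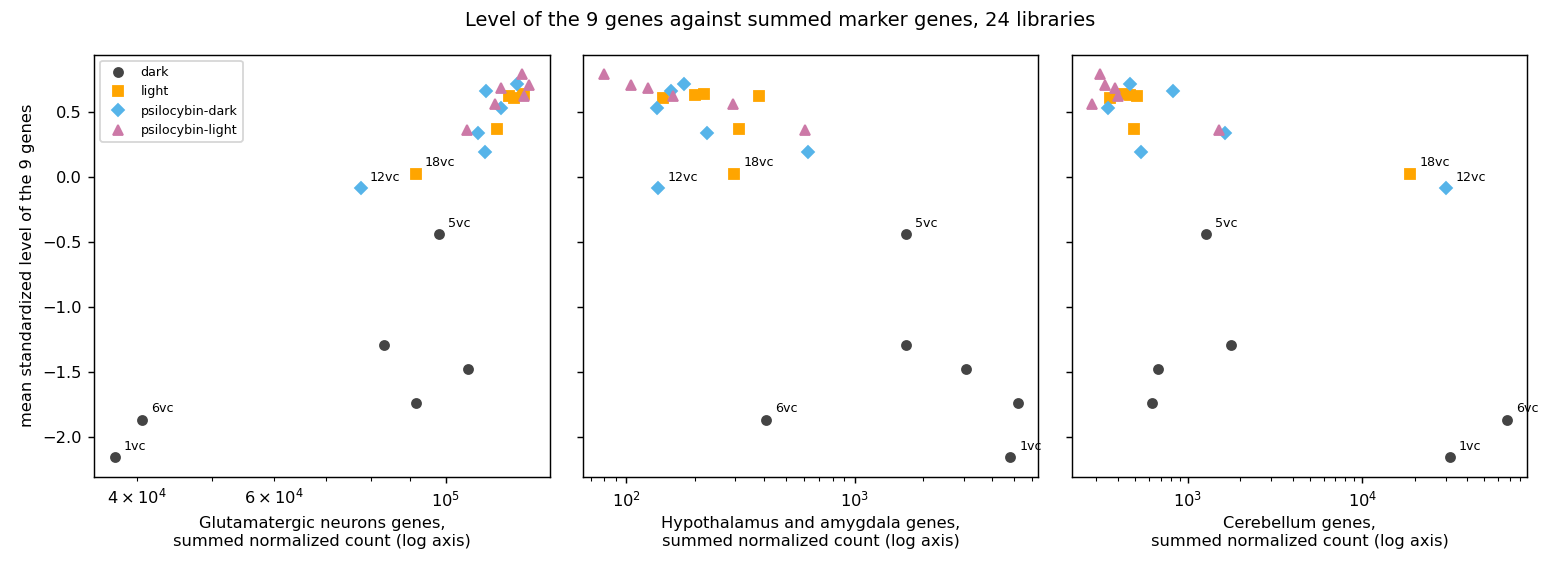
Mean standardized log2 level of the 9 genes (vertical axis) against the summed normalized count of glutamatergic, hypothalamus and amygdala, and cerebellum genes (horizontal log axes), 1 point per library. Dark libraries 1 and 6 lie lowest, dark library 5 lies closest to the other groups, and libraries 12 and 18 are the lowest points outside dark.

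Layer 4 genes other than the 2 among the 9 were also higher than dark. Of 8 such genes, 5 rose in light, 5 in psilocybin-dark and 5 in psilocybin-light, and none fell. DESeq2 also called 5 in each, and without dark libraries 1 and 6 the counts were 7, 6 and 5. The 5 were Kcnh5, a potassium channel subunit, Endou, an endoribonuclease, Cux2 and Rorb, transcription factors of upper layers and of layer 4, and Whrn, a scaffold protein. In light, Kcnh5 stood at 1.97 (SE 0.31, adjusted p = 5.36e-05), Endou at 1.75 (SE 0.21, adjusted p = 3.66e-06), Cux2 at 1.34 (SE 0.19, adjusted p = 2.58e-05) and Rorb at 1.21 (SE 0.21, adjusted p = 0.000182), all by edgeR. Hsd11b1, Ctxn3 and Tmem215 did not pass, at -0.07 (SE 0.28), 0.22 (SE 0.41) and 0.73 (SE 0.40). The median over the 8 was 0.97 in light, 0.82 in psilocybin-dark and 0.83 in psilocybin-light, against -0.01, -0.02 and -0.02 over all genes. The summed level of the 10 layer 4 genes ran from 2122 to 4247 in dark and from 5278 to 7087 elsewhere.

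Rspo1 differed in direction from its relatives. Of the 4 R-spondin genes, Rspo2 and Rspo3 fell in all 3 comparisons with dark and Rspo4, with at most 3 counts in a library, was not tested. Rspo2 went from 628 ± 334 in dark to 206 ± 61.1 in light, 312 ± 181 in psilocybin-dark and 194 ± 51.4 in psilocybin-light (SD, n = 6), which is -1.60 (SE 0.34), -1.01 (SE 0.34) and -1.69 (SE 0.35) on the log2 scale. Rspo3 went from 386 ± 161 to 249 ± 13.9, 254 ± 49.7 and 219 ± 31.3. Some of these calls rested on 1 library. Without dark library 4, Rspo3 was at -0.40 in light and -0.37 in psilocybin-dark (adjusted p = 0.0542 and 0.0917 by edgeR), and without dark library 3, Rspo2 was at -0.70 in psilocybin-dark (adjusted p = 0.111). Of their receptors and ligases, Lgr4, Lgr5, Lgr6, Rnf43 and Znrf3, none was called in light or psilocybin-dark, and Lgr4, Lgr5 and Znrf3 fell in psilocybin-light, at -0.51 (SE 0.10), -2.10 (SE 0.62) and -0.22 (SE 0.08).

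Among the Wnt ligands, 12 of 19 were tested. Beside Wnt9a, 1 of 11 rose and 3 fell in light and in psilocybin-dark, and 2 rose and 4 fell in psilocybin-light. Wnt10a rose in all 3, from 56.3 ± 43.7 in dark to 239.8 ± 35.0, 208 ± 27.1 and 267 ± 26.7, a log2 difference of 2.09 (SE 0.30) in light. Wnt7a and Wnt7b, ligands with roles in brain vessels and synapses, fell by 1.68 (SE 0.41) and 1.08 (SE 0.22) on the log2 scale in light, and Wnt2b by 0.91 (SE 0.24). Wnt9b, the closest relative of Wnt9a, had at most 39 counts and stood at 0.51 (SE 0.47), 1.09 (SE 0.46) and 0.81 (SE 0.46), which did not pass. Without dark libraries 1 and 6, 3 ligands beside Wnt9a rose in light and 3 in psilocybin-dark.

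Receptors and downstream genes showed mixed directions. Of 15 receptors, 1 rose and 5 fell in light and 2 rose and 1 fell in psilocybin-dark. The falls of Fzd1, Fzd7 and Ror1 in light were lost without dark library 6 (adjusted p = 0.134, 0.147 and 0.105 by edgeR). The rise of Fzd10 in psilocybin-dark was lost when some single library was left out. Fzd2 stood at 0.47 (SE 0.13) and Fzd8 at -0.68 (SE 0.18) in light. Of 12 genes of Wnt secretion and the intracellular pathway, 3 rose and 1 fell in light. The one that fell was Ctnnb1, which encodes beta-catenin, at -0.36 (SE 0.06), and Dvl1, an adaptor below the receptor, rose by 0.26 (SE 0.04). Axin2, a feedback inhibitor often read as a Wnt target, rose from 373 ± 35.6 in dark to 528 ± 57.2 in light and 488 ± 50.0 in psilocybin-dark, or 0.50 (SE 0.08) and 0.39 (SE 0.08), and was 1 of 3 of 7 target genes that rose in light and of 2 in psilocybin-dark, where Nkd2 fell. Of 7 tested antagonists, 3 rose in light and 3 in psilocybin-dark, the largest being Dkk3, at 1.20 (SE 0.20) in both. Rises of Dvl2, Dvl3, Nkd1, Tcf7 and Sfrp1 in light were each lost when some single library was left out. The medians of these 4 lists, in that order, were -0.06, -0.05, 0.20 and 0.30 in light against -0.01 over all genes. In psilocybin-dark they were -0.03, 0.04, -0.05 and 0.31, and in psilocybin-light -0.12, 0.0074, -0.23 and 0.17, so the median of the target genes changed its sign between comparisons, and 1 of the 7 target genes rose in psilocybin-light.

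**Figure D4:**
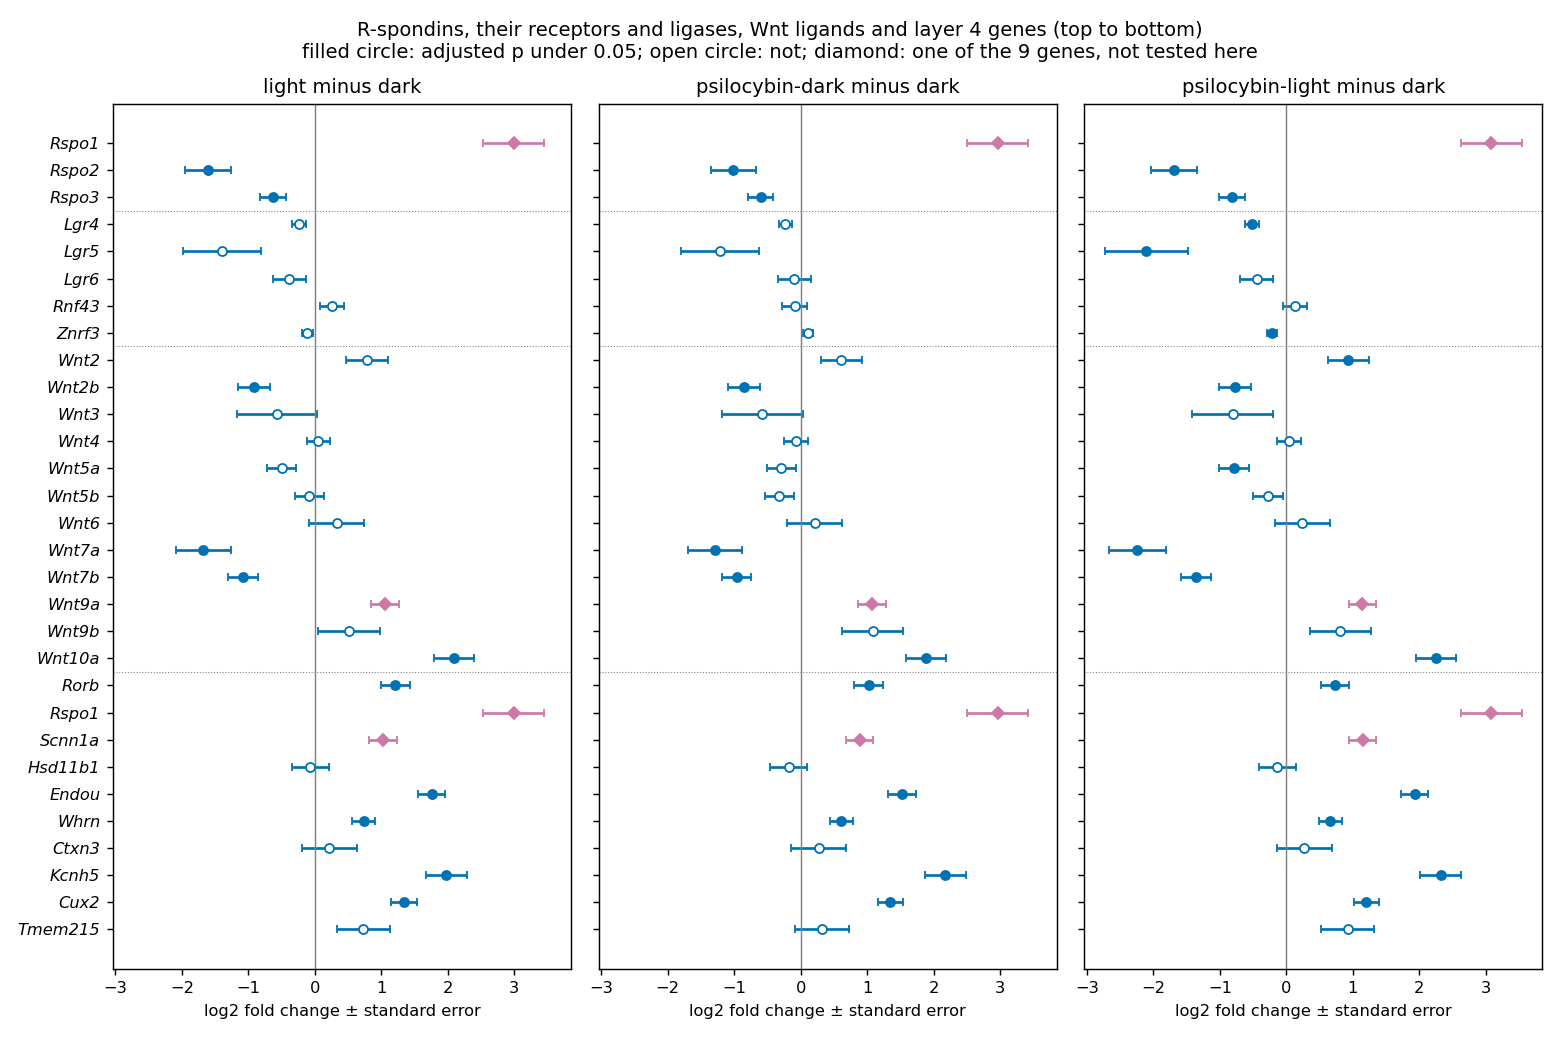
Log2 fold change over dark (horizontal axis, point) with standard error for tested R-spondins, their receptors and ligases, Wnt ligands and layer 4 genes, in 3 panels by comparison; filled circles passed an adjusted p under 0.05, open circles did not, and diamonds are Rspo1, Scnn1a and Wnt9a, which were not tested here. Rspo1 stands near 3 while Rspo2 and Rspo3 stand below 0, and Wnt9a and Wnt10a stand above 0 while Wnt7a and Wnt7b stand below.

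The other pallial factors showed mixed directions. Of 10 tested beside Emx1, 2 rose in each of the 3 comparisons, while 1 fell in light, 0 in psilocybin-dark and 4 in psilocybin-light. Tbr1, a factor of postmitotic cortical projection neurons, was among those that rose in all 3, with 1.06 (SE 0.31) in light. Bhlhe22 fell in light, at -0.55 (SE 0.19). Emx2, the paralogue of Emx1, stood at 0.38 (SE 0.20), 0.36 (SE 0.20) and 0.29 (SE 0.20) and did not pass (adjusted p = 0.151, 0.191 and 0.257 by edgeR). In all, 4 of the 10, Eomes, Neurod1, Pax6 and Bhlhe22, fell in psilocybin-light, where the cerebellum sum was 285 to 1512, against 625 to 67086 in dark. Without dark library 6, Neurod1 and Pax6 were at -1.18 and -0.79 and no longer passed (adjusted p = 0.116 and 0.191 by edgeR), and without dark library 2 Bhlhe22 was at -0.38 in both light and psilocybin-light (adjusted p = 0.0995 and 0.0912).

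Other parts of the T cell receptor complex had few counts. Cd3d, Cd3e, Cd3g, Cd247, Cd2 and Cd8a had at most 3, 4, 3, 3, 5 and 4 counts in any library, Trbc1 at most 1, Trdc at most 8 and Trac at most 29, while Trbc2 reached 152. Trac stood at 9.88 ± 9.12 normalized counts in dark and at 4.63 ± 2.18 in light. The summed level of 10 T cell markers was 74.0 to 161 in dark and 85.6 to 126 in the other 18 libraries, most of it from Ptprc and Lck. Cd4, which was below the filter, stood at 7.54 ± 2.20 in dark and 18.8 ± 3.33 in light. Only Lck and Ptprc of the 10 were tested and neither was called, at -0.54 (SE 0.28) and -0.22 (SE 0.18) in light. Reads of Trbc2 and of the near-identical Trbc1 can be split or discarded in counting, so the level of Trbc2 is uncertain in size.

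The remaining families held few relatives with enough reads. Scnn1b and Scnn1g, which join Scnn1a in the channel, had at most 3 and 26 counts, and of the acid-sensing channels Asic1, Asic2 and Asic4 none was called in light, with Asic1 at -0.22 (SE 0.06) in psilocybin-dark, where it fell. Nxf1, the general mRNA exporter, rose by 0.24 (SE 0.07) in light and was not called in psilocybin-dark (0.09, SE 0.07), Nxt1 and Nxt2, its cofactors, were not called, and Nxf2 and Nxf3 had at most 3 and 4 counts. Mdfi and Mdfic stood at -1.65 (SE 0.88) and 0.08 (SE 0.17) in light and were not called, and Mdfi fell in psilocybin-light, at -2.72 (SE 0.96), which became -1.81 (adjusted p = 0.131 by edgeR) without dark library 6.

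Genes beside the 9 on the chromosome were mostly not called, like most tested genes. Of the 18 nearest tested neighbours, 4 rose and 0 fell in light, where 15.4% of all tested genes rose and 16.5% fell. In psilocybin-dark 4 rose and 1 fell, beside 11.9% and 12.8% of all tested genes, so nothing particular to the neighbours is read from these counts. The median log2 fold change of the neighbours was 0.00 in light and -0.02 in psilocybin-dark. The largest difference was that of Ephb6, 56.7 kb from Trbc2 and encoding an ephrin receptor, at 1.06 (SE 0.15, adjusted p = 2.71e-05 by edgeR) in light and 1.10 (SE 0.15) in psilocybin-dark. Foxp1, a forkhead factor 583 kb from Mdfic2, stood at 0.77 (SE 0.19) and 0.80 (SE 0.19). Gnl2, 7.49 kb from Rspo1, stood at 0.20 (SE 0.05) and 0.17 (SE 0.05), and Clec5a, 961 kb from Trbc2, at 0.56 (SE 0.19) in light. The closest neighbours of Scnn1a, Tnfrsf1a at 3.66 kb and Ltbr at 6.74 kb, stood at 0.08 (SE 0.17) and -0.18 (SE 0.14) in light.

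By likeness to the mean standardized level of the 9 over all 24 libraries, the 5 closest other genes were C130074G19Rik (r = 0.99), Lrrc75a (0.99), Cd34 (0.98), Lamp5 (0.98) and Ier5 (0.98). The gap between dark and the other groups enters these values. Over the 18 libraries that are not dark, r for the same 5 genes was 0.94, 0.91, 0.93, 0.91 and 0.87, in that order. Within the 18 libraries that are not dark, the 5 closest were Osbpl1a (r = 0.97, rho = 0.87), Ngef (0.96, rho = 0.90), Efhd2 (0.96, rho = 0.73), Smim43 (0.95, rho = 0.84) and Npnt (0.95, rho = 0.80), a set that shares no gene with the first. Without libraries 12 and 18, Osbpl1a (0.94), Ngef (0.93), Smim43 (0.90) and Npnt (0.90) remained in the first 5 and Gabrd (0.93) took the place of Efhd2. Lamp5, a marker of upper-layer and some inhibitory neurons, went from 918 in dark to 3351 in light and 3567 in psilocybin-dark, and Smim43 from 241 to 1458 and 1405.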

How the data were processed

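RNA from mouse visual cortex was sequenced in 24 libraries after poly-A selection. The authors trimmed reads with cutadapt, mapped them with STAR and counted them with HTSeq, and the deposited values are raw counts per Ensembl gene. The labels' processing notes name mm10, whereas the study's methods name GRCm39. The annotation release and strand setting are not given in the sources used here.

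Groups follow the headings of the study's supplementary count table, and the sample labels' opposite light exposure was an alternative. The tool was edgeR 4.0.16 in R 4.3.3 with TMM scaling and its quasi-likelihood test, as 1 fit over 24 libraries. Genes entered when some library held 30 counts or more, and calls are at a Benjamini-Hochberg adjusted p under 0.05, two-sided. Standard errors are the log2 fold change over the square root of F. Log2 values for likeness used a prior count of 2. The common biological coefficient of variation was 0.182. Within groups, every pair of libraries differed by more than sampling noise (chi-square per degree of freedom at least 3.02), and n counts libraries. The sources used here do not say for each library that it is a separate mouse, so p-values measure the spread between libraries, which may be partly technical.

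DESeq2 1.42.0, other scalings and filters, 2-group fits and libraries left out were alternatives. On simulated data with 200 changed genes of 2-fold, 198 were called, with 13 unchanged ones, over 14034 genes in light against dark. The simulated data had the same spread for all genes, no outlying libraries and no changed genes near the floor. Its counts therefore do not give the error rates in the real libraries. Positions came from GENCODE vM39 and promoters from RefSeq (GRCm38.p6), placed on GRCm39 by exact match.

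The members and gene lists were chosen with earlier results of these data known. Named genes are the 9, up to 4 called genes per list with the largest change, relatives of the 9, the nearest tested neighbours and the 5 most alike genes of a mean count of 10 or more. Some genes of the lists are not reported here.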

Additional observations from a re-analysis of the deposited data

Results flagged for a closer look

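In 36 sets of 6 libraries (9 genes in 4 groups), 3 held a library whose gap to its nearest neighbour was past Dixon's 95% critical share of the set's range, and chance alone gives about 1 set in 20. Trbc2 in dark library 5 stood at 35.3 normalized counts against 3.58 in the next dark library. A830009L08Rik in the same library stood at 40.9 against 9.71. Emx1 in light library 18 stood at 364 against 568 in the next lowest light library.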

How the results depend on the processing

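The count of the 9 genes called stayed at 0 in psilocybin-light against light, psilocybin-light against psilocybin-dark and psilocybin-dark against light under DESeq2, DESeq2 size factors, 2 other filters, 2-group fits, each library left out, and libraries 1 and 6 or 1, 6, 12 and 18 left out. With the light exposure of the sample labels, 9 were called in psilocybin-light against light and 9 in psilocybin-dark against light, since the groups then exchange names and the libraries that chose the genes are compared with those called dark here. Under those labels the light differences from dark became -3.69 for Mdfic2, -3.74 for Trbc2, -3.64 for Nxf7, -3.63 for A830009L08Rik, -3.43 for Gm13601, -2.99 for Rspo1, -1.02 for Scnn1a, -1.48 for Emx1 and -1.05 for Wnt9a. Psilocybin-dark against dark fell to 0.58 or less for all 9, at 0.35, -0.034, 0.58, -0.0037, 0.31, 0.095, 0.12, 0.0091 and 0.087 in the same order of genes. Psilocybin-light against dark became 0.050, -0.30, 0.40, -0.42, -0.076, -0.024, -0.14, -0.28 and 0.022. Psilocybin-light against light became 3.44 for Trbc2 and 3.20 for A830009L08Rik, and psilocybin-dark against light 3.71, 3.62, 3.73, 3.08, 1.14 and 1.49 for Trbc2, A830009L08Rik, Gm13601, Rspo1, Scnn1a and Emx1. Psilocybin-light against psilocybin-dark became -0.30, -0.26, -0.18, -0.42, -0.38, -0.12, -0.26, -0.29 and -0.065 for Mdfic2, Trbc2, Nxf7, A830009L08Rik, Gm13601, Rspo1, Scnn1a, Emx1 and Wnt9a.

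Differences near 0 changed sign in other ways, and the cause was not tested. For A830009L08Rik, psilocybin-light minus light was 0.0048 with DESeq2, 0.0042 with its size factors, 0.0057 with filterByExpr, 0.00081 with no filter and 0.0012 with 2 groups. Without libraries 1, 6, 12 and 18 it was -0.056 for Rspo1 and -0.083 for Emx1, psilocybin-light minus psilocybin-dark was -0.045 for Rspo1, and psilocybin-dark minus light was 0.023 for Gm13601. With each library left out in turn, psilocybin-light minus light ran from -0.18 to 0.044 for Trbc2, -0.11 to 0.098 for A830009L08Rik, -0.060 to 0.18 for Rspo1 and -0.089 to 0.049 for Emx1, psilocybin-light minus psilocybin-dark from -0.050 to 0.26 for Rspo1, and psilocybin-dark minus light from -0.093 to 0.14 for Mdfic2, -0.21 to 0.058 for Gm13601, -0.18 to 0.15 for Rspo1 and -0.037 to 0.080 for Wnt9a. These are descriptions.

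Without dark libraries 1 and 6, 3 hippocampus genes were called lower in light and 0 cerebellum genes in psilocybin-light. Without libraries 1, 6, 12 and 18, 4 cerebellum genes were called lower in light and 4 in psilocybin-light. Wnt ligands called higher in light numbered 2 with DESeq2 and 3 without either set of libraries, and in psilocybin-dark 3 without libraries 1 and 6 and 2 without all 4. Nxf7 could not be fitted with only light and dark, being below the filter there, so 1 value is not given. DESeq2 size factors moved the median of all genes by under 0.02 on the log2 scale. Leaving out libraries 1, 6, 12 and 18 together, and all alternatives for gene lists, were chosen after seeing the data. No paired analysis was possible because the libraries are numbered 1 to 24 and no number is shared between groups. Calls lost when some single library was left out included Nkd2 and Wnt7a in psilocybin-dark and Znrf3, Opalin and Smim32 in psilocybin-light. The 8 Nxf7 and 14 Gm13601 counts in dark limit the precision of their fold changes.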

Other observations

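Other layer and cell type lists, beside the 9 genes, showed mixed directions against dark. Of 7 layer 2 and 3 genes, Agmat, an agmatinase used as an upper-layer marker, rose in all 3 comparisons, at 2.57 (SE 0.36) in light, and Cux1 rose in light, while Adamts2 and Calb1 fell in light and psilocybin-light. Calb1 was highest in dark in libraries 6 and 1, at 13537 and 7815 normalized counts, the dark libraries high in cerebellum genes. Its light difference was -0.94, and -0.54 without dark library 6 (adjusted p = 0.185 by edgeR). The part of cerebellum RNA in it was not tested. Of 8 layer 5 genes, Slc17a8, a vesicular glutamate transporter, rose in all 3, at 1.01 (SE 0.29) in light, and Etv1 and Parm1 fell in all 3, at -1.36 (SE 0.23) and -0.83 (SE 0.16) in psilocybin-light, where 3 of the 8 fell. Of 10 tested layer 6 genes, Syt6 rose in all 3, at 0.75 (SE 0.25) in light, and in psilocybin-light 3 of the 10 rose and 1 fell.

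Among glutamatergic markers, Nrgn, a calmodulin-binding protein of dendrites, rose by 1.23 (SE 0.25) in light, and the other 3 were not called. Among 7 markers of GABAergic neurons, Vip rose by 1.11 (SE 0.26) in light and Gad2 fell by 0.29 (SE 0.06), and Gad1, Slc32a1, Pvalb, Sst and Lhx6 were not called. Of 7 oligodendrocyte genes none was called in light or psilocybin-dark, and Opalin rose in psilocybin-light. Of 6 astrocyte genes, Aldh1l1 rose and Aqp4 and Gja1 fell in light. Of 6 microglia genes, Csf1r and C1qa rose in light. Of 4 endothelium genes none was called in the 3 comparisons. Of 5 tested meninges and choroid plexus genes, Dcn fell by 3.38 (SE 0.50) and Ttr rose by 3.87 (SE 1.28) in light. The Ttr call rested on light library 14, at 1980 normalized counts against 16.2 to 53.3 in the other 5, and without it the difference was 0.41 (SE 1.00, adjusted p = 0.798 by edgeR). In light, the calls of Cux1, Calb1, Syt6, Csf1r and Adora2a were also lost when some single library was left out. Of 7 striatum genes, 2 rose in light, Adora2a among them, and Penk fell. Of 5 tested thalamus genes Ramp3 rose in light, and of 4 claustrum genes Smim32 rose.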
